A study of Mus musculus with 18 samples.

Results

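The genes described here are 10 genes of fatty acid oxidation, out of 21003 gene symbols in the count table: Cpt1a, Slc25a20, Cpt2, Acadvl, Acadl, Acadm, Hadha, Hadhb, Etfdh and Ppard. They were taken from a list of symbols for carnitine-dependent entry into mitochondria and mitochondrial beta oxidation, with a receptor that controls such genes. Fatty acids enter the mitochondrial matrix as carnitine esters and are then shortened in cycles of dehydrogenation, hydration, a further dehydrogenation and thiolysis, each cycle releasing acetyl-CoA and passing electrons to the respiratory chain. In mouse haematopoietic stem cells, fatty acid oxidation under the nuclear receptor PPAR delta is known for its part in stem cell maintenance. The question put to the data was how the transcripts of these genes stood in cultured cells, at either pH, against freshly isolated ones.

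RNA was measured in libraries of 100 long-term haematopoietic stem cells (LT-HSCs) each, sorted from the bone marrow of mice aged 8 to 12 weeks. The strain is given as B6.SJL in the growth protocol and as wild type on a C57 B6 background in the genotype field. The 3 groups of 6 libraries were 48 h cultures at pH 6.9, 48 h cultures at pH 7.4, and fresh cells that were not cultured and carry the label pH 7.4. The culture medium was IMDM with 10% fetal bovine serum and cytokines at 50 ng/ml, SCF and G-CSF among them, and dishes were kept at 37 °C in 5% CO2 and 3% O2. Fresh cells therefore differ from both cultures in serum, cytokines and time as well. The design names 6 individual mice, and each group holds replicates 1 to 6.

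In each group the odd-numbered and the even-numbered mice carry different first sequencing indices: 705 and 706 at pH 6.9, 707 and 708 at pH 7.4, 701 and 702 in fresh cells. Within a parity, the group and the index therefore cannot be told apart, and each comparison was made over all mice and also within each parity. Fits used 15 libraries, 5 at pH 6.9, 6 at pH 7.4 and 4 fresh, with totals of 1640817 to 7508120 counts and 11225 to 12792 genes detected. Fresh replicate 1 had 6311 counts in all, and fresh replicate 4 and pH 6.9 replicate 3 had 9408 and 8925 genes detected. These 3 were left out of the fits, and their values are given separately. All 16 genes of an LT-HSC list, among them Kit, Ly6a and Procr but also Cd34, Flt3 and Cd48, whose surface proteins are known to mark progenitors more than LT-HSCs in the mouse, had counts in every set of group and parity. In such pooled samples, fewer cells of a type and less RNA per cell cannot be told apart. Counts are given as CPM, counts per 1e+06 after TMM scaling of the library totals.

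On GRCm38 (mm10), the shuttle genes are Cpt1a on chromosome 19 (3322334 to 3385733, plus strand), Slc25a20 on chromosome 9 (108662088 to 108684641, plus) and Cpt2 on chromosome 4 (107903981 to 107923610, minus). The acyl-CoA dehydrogenase genes are Acadvl on chromosome 11 (70010183 to 70015411, minus), Acadl on chromosome 1 (66830839 to 66863277, minus) and Acadm on chromosome 3 (153922357 to 153944632, minus). Etfdh lies on chromosome 3 (79603788 to 79629500, minus) and Ppard on chromosome 17 (28232700 to 28301474, plus). Hadha (chromosome 5, 30118304 to 30155162, minus) and Hadhb (30155248 to 30184593, plus) lie head to head, 85 bases apart. Exons of Acadvl overlap Dvl2, those of Hadha overlap Garem2 and those of Etfdh overlap 4930579G24Rik, each on the opposite strand. The libraries keep no strand information, so reads in the shared stretches cannot be told apart by strand.

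The 250 bases upstream of the RefSeq start (GRCm38.p6) are shown for the 3 acyl-CoA dehydrogenases, whose windows hold no annotated exon. The stretch between Hadha and Hadhb is shown because the annotated starts of both genes flank it. Capitals mark matches, on either strand, to 5 motifs: AGGTCA (the hexamer recognised by PPAR and ERR receptors), its extension TCAAGGTCA, the PPAR direct repeat of that hexamer with 1 base between the copies, CCAAT and the NRF1 core GCATGCGC. The hexamer also lies within its extension and within the direct repeat, so a match to either would count for both. The Acadvl window is chr11:70015429-70015678, read on the minus strand:
Acadvl: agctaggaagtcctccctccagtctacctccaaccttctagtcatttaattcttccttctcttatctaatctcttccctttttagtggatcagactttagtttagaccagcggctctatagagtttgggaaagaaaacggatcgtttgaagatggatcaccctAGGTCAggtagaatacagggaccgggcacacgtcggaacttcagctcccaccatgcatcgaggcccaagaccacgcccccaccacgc
The Acadm window is chr3:153944644-153944893, read on the minus strand:
Acadm: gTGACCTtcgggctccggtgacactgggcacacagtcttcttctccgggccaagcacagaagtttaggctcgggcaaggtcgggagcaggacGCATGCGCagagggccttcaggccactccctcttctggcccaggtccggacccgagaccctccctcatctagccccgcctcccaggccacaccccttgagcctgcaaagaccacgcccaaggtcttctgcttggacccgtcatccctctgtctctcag
The Acadl window is chr1:66863310-66863559, read on the minus strand, and it holds none of the 5 motifs:
Acadl: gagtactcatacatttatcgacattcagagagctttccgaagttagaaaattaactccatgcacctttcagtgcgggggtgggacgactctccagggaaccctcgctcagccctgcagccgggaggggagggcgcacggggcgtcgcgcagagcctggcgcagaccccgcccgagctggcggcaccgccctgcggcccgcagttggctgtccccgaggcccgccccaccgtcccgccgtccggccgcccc
The stretch between Hadha and Hadhb is chr5:30155163-30155247, read on the plus strand, and it holds none of them either:
Hadha to Hadhb: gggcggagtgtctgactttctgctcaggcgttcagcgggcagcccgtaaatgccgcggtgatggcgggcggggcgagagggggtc
Over the windows of all 10 genes, AGGTCA was found in those of Cpt1a, Acadm and Acadvl, against 14% of 32851 promoters of the same length. GCATGCGC was found in those of Acadm and Etfdh, where its 2 matches overlap each other, against 2.26% of promoters, and CCAAT in those of Cpt1a, Etfdh and Ppard, against 33.8%. TCAAGGTCA and the direct repeat, found in 0.387% and 0.0335% of promoters, were in none of the 10. The Etfdh window lies wholly within annotated exons of the gene and is not printed. These matches describe letters in the windows only.

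Per kilobase of the longest protein-coding transcript of each gene, the genes spanned a wide range of levels over the 15 libraries. Acadl, the long-chain acyl-CoA dehydrogenase, stood highest at 149 ± 30.3 CPM per kb (SD, n = 15), with Hadhb at 134.5 ± 25.6, and these neighbours did not differ beyond their spread. Acadm followed at 76.0 ± 12.0 CPM per kb and Acadvl at 65.4 ± 20.9, again within their spread, then Etfdh at 47.7 ± 12.1 and Slc25a20 at 35.4 ± 10.4. Both carnitine palmitoyltransferase genes were close to each other, with Cpt1a at 27.5 ± 8.71 and Cpt2 at 26.01 ± 7.68 CPM per kb. Hadha stood at 13.9 ± 3.68 CPM per kb. Ppard, the gene of PPAR delta itself, was close to the floor at 0.439 ± 0.418 CPM per kb, with 0 to 24 counts per library. The genes of the other PPAR receptors were also at or near 0, Ppara with 0 counts in each of the 6 sets and Pparg with 0 to 4.47 CPM.

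**Figure D1:**
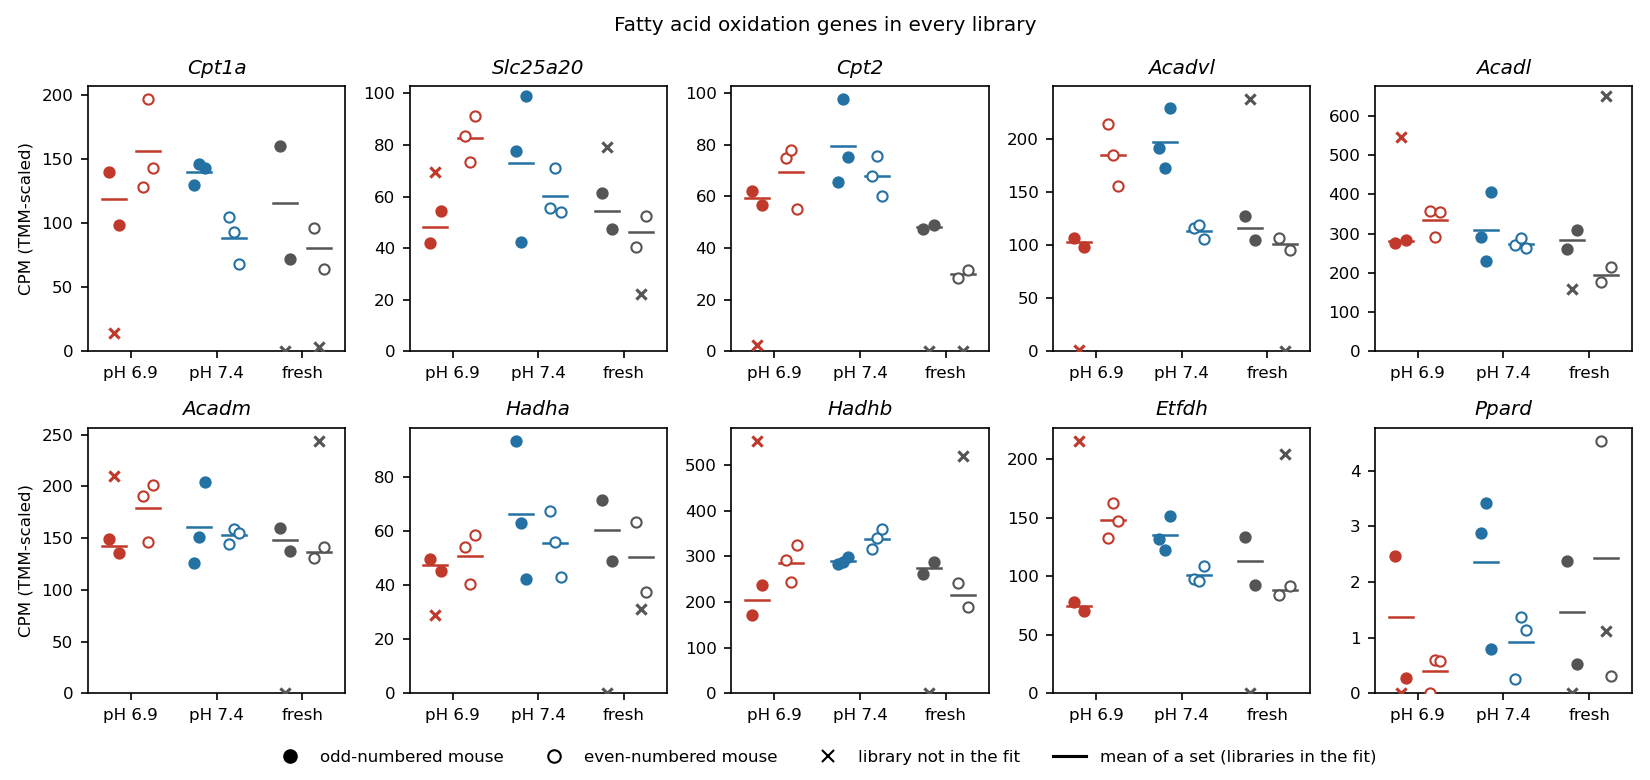
Level of each of the 10 genes in every library, in CPM (vertical axis, linear, from 0), for cells cultured at pH 6.9, cells cultured at pH 7.4 and fresh cells; filled points are odd-numbered and open points even-numbered mice, bars are the means of the libraries in the fit, and crosses are the 3 libraries left out. Cpt2 stood at 55.2 to 78.1 CPM at pH 6.9 and 60.0 to 97.8 CPM at pH 7.4, all above its 28.2 to 49.1 CPM in fresh cells, while Acadvl and Etfdh split by mouse parity within each culture.

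Over all mice, Cpt2 was the 1 gene of the 9 tested whose cultured and fresh libraries did not overlap. Cpt2, the inner-membrane enzyme that turns acylcarnitines back into acyl-CoA, had 62.3, 75.0, 78.1, 56.5 and 55.2 CPM at pH 6.9. It had 65.7, 67.9, 97.8, 75.6, 75.3 and 60.0 CPM at pH 7.4, against 28.2, 47.2, 49.1 and 31.6 CPM in fresh cells. Every cultured library lay above every fresh one, and the 2 cultures overlapped. Of all 10659 genes tested, 0.891% were higher without overlap at pH 6.9 than in fresh cells and 0.863% at pH 7.4 than in fresh cells. Cpt2 was the 1 gene in each, and none of the 9 was lower without overlap, against 1.04% and 0.919% of all genes. Between pH 6.9 and pH 7.4 all 9 overlapped, as did all but 0.206% (higher) and 0.3% (lower) of all genes. The log2 fold change of Cpt2 was 0.74 ± 0.22 (SE) at pH 6.9 against fresh cells (edgeR adjusted p = 0.8288) and 0.92 ± 0.22 at pH 7.4 against fresh cells (edgeR adjusted p = 0.771). Neither passed the threshold of 0.05 after Benjamini-Hochberg adjustment over all genes. Both of these comparisons use the same fresh libraries. In the library left out at pH 6.9, Cpt2 was at 2.55 CPM.

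None of the 9 tested genes, and 0% of all genes, passed edgeR's test over all mice in any of the 3 comparisons. The spread within a group in these tests includes the difference between the parities. At an unadjusted edgeR p under 0.05 there were 595 genes for pH 6.9 against fresh cells, 613 for pH 7.4 against fresh cells and 657 for pH 6.9 against pH 7.4, and Cpt2 alone of the 9 was among them in the comparisons with fresh cells. DESeq2 called 1, 0 and 9 of all genes and none of the 9. Most fold changes against fresh cells were above 0. At pH 6.9, 8 of 9 were positive with a median log2 fold change of 0.39, against 49.87% of all genes and a median of 0.00. At pH 7.4, 9 of 9 were positive with a median of 0.29, against 52.2% of all genes and a median of 0.02. Acadvl, the very-long-chain acyl-CoA dehydrogenase, stood at 0.48 ± 0.26 and 0.52 ± 0.25 (log2, SE) in these comparisons. Between pH 6.9 and pH 7.4, 5 of 9 were positive and the median was 0.00.

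Within the parities, the pH contrast of Acadvl was called in opposite directions, and that of Etfdh differed between them. Acadvl, whose product opens the oxidation of the longest chains at the inner membrane, had 107 and 98.6 CPM at pH 6.9 in odd-numbered mice, against 191, 172 and 229 CPM at pH 7.4. In even-numbered mice it had 214, 185 and 155 CPM at pH 6.9, against 116, 119 and 106 CPM at pH 7.4. The order of the groups was reversed between the parities. Fresh libraries, at 128 and 104.5 CPM in odd-numbered and 107 and 95.8 CPM in even-numbered mice, lay below the higher set of each culture and overlapped the lower ones.

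For Acadvl the log2 fold change of pH 6.9 against pH 7.4 was -0.95 ± 0.21 (SE) in odd-numbered mice (edgeR adjusted p = 0.00902) and 0.73 ± 0.18 in even-numbered mice (edgeR adjusted p = 0.0247). The difference between the parities, odd minus even, was -1.68 ± 0.28 (edgeR adjusted p = 0.000471). That difference held in each of the 15 fits that left out 1 library, at -1.78 to -1.53, and in the fit with mouse number as a block. The single-parity calls were less stable. The odd-numbered call ended without pH 6.9 replicate 1 (adjusted p = 0.0504) or 5 (0.0786), and the even-numbered one without pH 7.4 replicates 2, 4 or 6 or pH 6.9 replicates 2 or 4 (edgeR adjusted p = 0.0625 to 0.134).

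Etfdh was also split by parity. Its product, in the inner membrane, passes electrons from the electron transfer flavoprotein, and so from all the acyl-CoA dehydrogenases, to ubiquinone. Etfdh had 78.3 and 70.4 CPM at pH 6.9 in odd-numbered mice, against 132, 122 and 151 CPM at pH 7.4, and 133, 163 and 147 CPM at pH 6.9 in even-numbered mice, against 97.5, 95.7 and 109 CPM at pH 7.4. Again the order of the groups was reversed between the parities. Fresh libraries had 133 and 92.8 CPM in odd-numbered and 84.0 and 92.0 CPM in even-numbered mice. The log2 fold change was -0.87 ± 0.22 in odd-numbered mice (edgeR adjusted p = 0.0169) and 0.58 ± 0.19 in even-numbered mice (edgeR adjusted p = 0.0759), with a difference of -1.46 ± 0.29 (adjusted p = 0.00188). The difference held in each of the 15 fits that left out 1 library, at -1.52 to -1.34. The odd-numbered call ended without pH 6.9 replicate 1 (edgeR adjusted p = 0.0687) or 5 (0.128).

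Acadvl and Etfdh were the 2 genes of the 10 whose pH contrast differed between the parities, where edgeR called 17.2% of all 11226 genes, 8.72% with a negative difference. In odd-numbered mice the same pair fell, where 10.6% of all genes were called and 5.64% fell. In even-numbered mice Acadvl was the 1 of 10 that rose, where 6.24% were called and 2.68% rose. Counts of 1 or 2 in 10 are not far from these shares. The 10 fold changes were all negative in odd-numbered mice, with a median of -0.50 against -0.08 over all genes. In even-numbered mice 7 of 10 were positive, with a median of 0.29 against 0.07. Ppard, close to the floor, is among the 10, at -1.01 ± 1.57 and -0.99 ± 1.42 (SE). With all 18 libraries, or all but fresh replicate 1, none of the 10 genes was called in any comparison.

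Of the cell marker lists, only the sum of the whole LT-HSC list stood above all other sets in both sets with high Acadvl. The summed level of the 16 genes of the LT-HSC list was 2780 to 3962 CPM at pH 6.9 in even-numbered mice and 2881 to 3893 CPM at pH 7.4 in odd-numbered mice, the sets with high Acadvl. It was 2106 to 2346 CPM at pH 6.9 in odd-numbered mice, 1739 to 2426 CPM at pH 7.4 in even-numbered mice, and 1885 to 2296 and 1644 to 1682 CPM in fresh odd-numbered and even-numbered mice. Cd34 alone had 725 to 1989 CPM at pH 6.9, 1003 to 2115 CPM at pH 7.4 and 671 to 1087 CPM in fresh cells. Ly6a alone had 703 to 1077 CPM at pH 6.9, 112 to 1072 CPM at pH 7.4 and 263 to 420 CPM in fresh cells. Without Cd34, Flt3 and Cd48, the remaining 13 genes summed to 1490 to 1947 CPM at pH 6.9 in even-numbered mice and to 1320 to 1785 CPM at pH 7.4 in odd-numbered mice. They summed to 1262 to 1616 CPM at pH 6.9 in odd-numbered mice, 564.6 to 830.5 CPM at pH 7.4 in even-numbered mice, and 743 to 1194 and 914 to 960 CPM in fresh odd-numbered and even-numbered mice, so that the pH 6.9 sets of the 2 parities overlap without those 3 genes. The 8 markers of granulocyte-monocyte progenitors summed to 1825 to 5265 CPM at pH 7.4 in even-numbered mice, against 63.4 to 110 CPM in odd-numbered mice of that culture, where Elane and Cebpe were at 0. At pH 6.9 they summed to 54.6 to 73.9 CPM in even-numbered and 167 to 171 CPM in odd-numbered mice, and in fresh cells to 119 to 276 CPM in even-numbered and 78.8 to 5625 CPM in odd-numbered mice. Fcgr3 and Cebpe were at 0 at pH 6.9 in odd-numbered and in fresh cells of even-numbered mice. The 5 markers of T and NK cells in the table summed to 6.06 to 18.01 CPM at pH 6.9, 54.1 to 110 CPM at pH 7.4 and 39.3 to 59.0 CPM in fresh cells of even-numbered mice. In odd-numbered mice they summed to 24.04 to 66.1 CPM at pH 6.9, 9.51 to 22.5 CPM at pH 7.4 and 20.7 to 135 CPM in fresh cells, and Cd3g was at 0 in all 6 sets. Erythroid markers summed to 1169 to 1969 CPM at pH 6.9, 1166 to 1390 CPM at pH 7.4 and 900.4 to 1312 CPM in fresh cells of even-numbered mice. In odd-numbered mice they summed to 702 to 1002, 1156 to 2574 and 889 to 1860 CPM in the same 3 groups, with Car1 at 0 in all 4 sets of cultures. Megakaryocyte markers summed to 57.2 to 408 CPM at pH 6.9, 51.0 to 450.4 CPM at pH 7.4 and 426 to 603 CPM in fresh cells of even-numbered mice, and to 112 to 191, 138 to 977 and 155 to 346 CPM in those groups of odd-numbered mice. Mast cell and basophil markers summed to at most 23.9 CPM at pH 6.9, 182 CPM at pH 7.4 and 198 CPM in fresh cells, with Prss34 at 0 in all 6 sets, B cell markers to 21.2 to 81.2 CPM and those of monocytes and macrophages to 148 to 445 CPM over all libraries of the fit. Neutrophil markers summed to at most 6.66 CPM in any library. The part of these markers in the results was not tested.

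**Figure D2:**
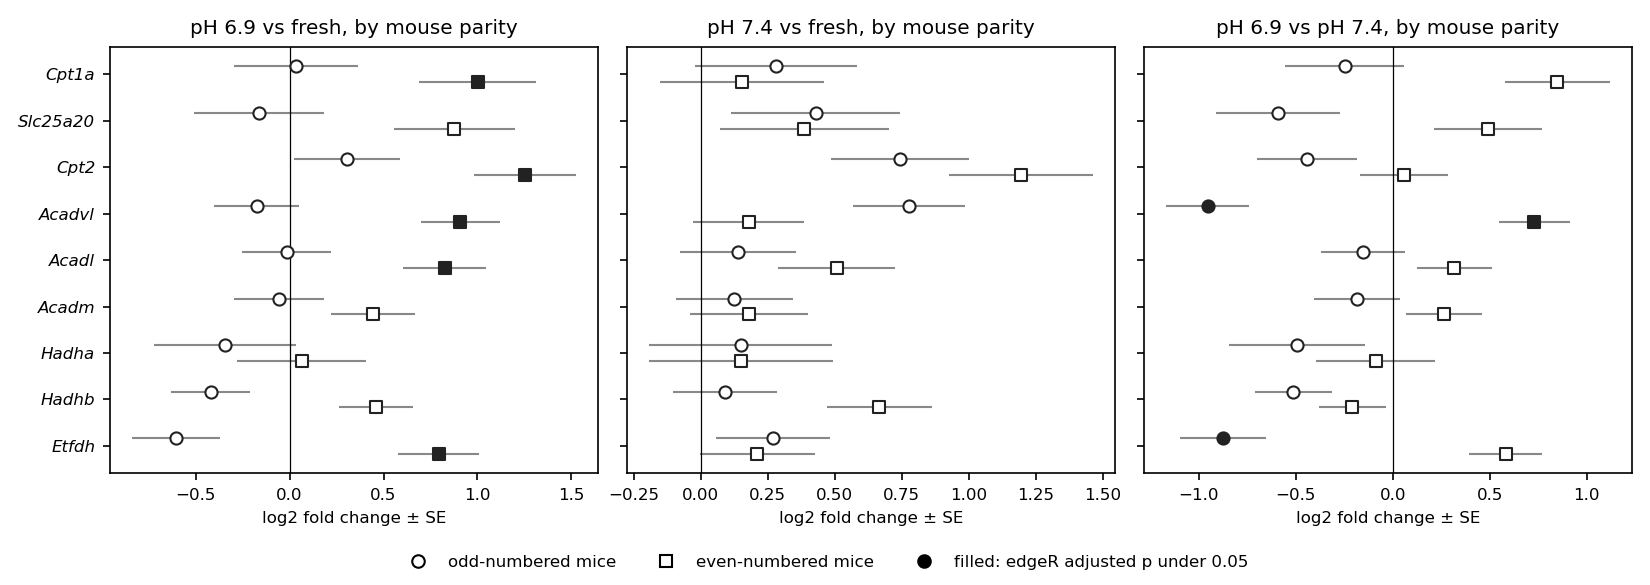
Log2 fold change with its SE (horizontal axis, a scale of its own in each panel) of the 9 genes other than Ppard in odd-numbered (circles) and even-numbered (squares) mice; filled symbols passed edgeR's test. For pH 6.9 against fresh cells, 5 genes were called in even-numbered mice and none in odd-numbered mice; for pH 6.9 against pH 7.4, Acadvl was called in opposite directions.

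Against fresh cells, the rise at pH 6.9 was called in even-numbered mice, and it took in the entry enzymes Cpt1a and Cpt2. Cpt1a, the outer-membrane enzyme that makes acylcarnitines and controls the rate of entry, had 128, 197 and 143 CPM at pH 6.9 in even-numbered mice, against 96.3 and 64.5 CPM in fresh cells. In odd-numbered mice it had 139 and 98.5 CPM at pH 6.9, against 160 and 71.8 CPM in fresh cells, so that the groups overlapped. At pH 7.4, Cpt1a had 130, 146 and 143 CPM in odd-numbered and 105, 93.0 and 68.1 CPM in even-numbered mice. The log2 fold change of pH 6.9 against fresh cells in even-numbered mice was 1.001 ± 0.31 (edgeR adjusted p = 0.047). This call did not hold in 12 of the 15 fits that left out 1 library (adjusted p = 0.0515 to 0.300 in them), namely all but those without fresh replicates 3 or 5 or pH 6.9 replicate 5, nor with the mouse-number block (0.0671) or with DESeq2's size factors (0.0598). The pH contrast of Cpt1a in even-numbered mice was 0.85 ± 0.27 (edgeR adjusted p = 0.0707), and its difference between the parities -1.09 ± 0.41 (adjusted p = 0.0735).

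Slc25a20, the carrier that exchanges acylcarnitine for carnitine across the inner membrane, had 83.7, 73.3 and 91.1 CPM at pH 6.9 in even-numbered mice, against 40.5 and 52.4 CPM in fresh cells. In odd-numbered mice it had 41.9 and 54.4 CPM at pH 6.9, against 61.5 and 47.5 CPM in fresh cells. At pH 7.4 it ranged from 42.2 to 99.0 CPM and overlapped both other groups. The log2 fold change of pH 6.9 against fresh cells in even-numbered mice, 0.88 ± 0.32, missed the threshold (edgeR adjusted p = 0.0918).

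Cpt2 rose in even-numbered mice at pH 6.9, with 75.0, 78.1 and 55.2 CPM against 28.2 and 31.6 CPM in fresh cells, a log2 fold change of 1.25 ± 0.27 (edgeR adjusted p = 0.00654). This was the largest called change of the 10 genes against fresh cells, and it was not called without fresh replicate 2 (adjusted p = 0.0925). At pH 7.4 the same mice had 67.9, 75.6 and 60.0 CPM, with a log2 fold change of 1.19 ± 0.27 against fresh cells (edgeR adjusted p = 0.0968), which DESeq2 called (adjusted p = 0.00797). In odd-numbered mice fresh cells had 47.2 and 49.1 CPM of Cpt2, higher than in even-numbered mice, and pH 6.9 cells had 62.3 and 56.5 CPM. Between pH 6.9 and pH 7.4 the log2 fold change of Cpt2 was -0.44 ± 0.26 in odd-numbered mice (edgeR adjusted p = 0.294) and 0.06 ± 0.23 in even-numbered mice (0.923).

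Among the dehydrogenases, Acadvl and Acadl rose at pH 6.9 against fresh cells in even-numbered mice. The log2 fold change of Acadvl was 0.91 ± 0.21 (edgeR adjusted p = 0.0107), not called without fresh replicate 2 or 6 (0.0746 and 0.0897). Acadl had 359, 292 and 355 CPM at pH 6.9 in even-numbered mice, against 176 and 215 CPM in fresh cells, a log2 fold change of 0.82 ± 0.22 (adjusted p = 0.0226). The call ended without pH 6.9 replicate 2 (edgeR adjusted p = 0.0772) or 6 (edgeR adjusted p = 0.09205). It also ended without fresh replicate 2 or 6, with log2 fold changes of 0.65 and 0.98. In odd-numbered mice Acadl had 277 and 283 CPM at pH 6.9, between its 261 and 309 CPM in fresh cells. At pH 7.4 Acadl had 293, 231 and 407 CPM in odd-numbered and 272, 290 and 263 CPM in even-numbered mice. Acadm, the medium-chain dehydrogenase, had 191, 146 and 202 CPM at pH 6.9 in even-numbered mice, against 131 and 142 CPM in fresh cells, and a log2 fold change of 0.44 ± 0.22 (edgeR adjusted p = 0.229). Over all 15 libraries Acadm ranged from 126 to 205 CPM.

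Etfdh also rose in even-numbered mice at pH 6.9 against fresh cells, with a log2 fold change of 0.79 ± 0.22 (edgeR adjusted p = 0.0251). In odd-numbered mice its fold change was -0.60 ± 0.24 (adjusted p = 0.267), and the difference between the parities was -1.40 ± 0.32 (edgeR adjusted p = 0.00862), not called without fresh replicate 3 (0.0684). For Acadvl this difference was -1.08 ± 0.31 (edgeR adjusted p = 0.0276). It was not called with the mouse-number block (0.0729), without a filter on low counts (0.0614), or without fresh replicates 2, 3 or 6 or pH 6.9 replicates 1, 2 or 5 (0.0646 to 0.131). The even-numbered call of Etfdh ended with the block (edgeR adjusted p = 0.0665), without a filter (0.0646), and without fresh replicates 2 or 6, pH 7.4 replicate 2 or pH 6.9 replicates 4 or 6 (0.0504 to 0.215).

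In all, 5 of the 10 genes rose in even-numbered mice at pH 6.9 against fresh cells, namely Cpt2, Cpt1a, Acadvl, Acadl and Etfdh, where edgeR called 10.1% of all genes and 4.98% upward. The median log2 fold change of the 10 was 0.81, against 0.10 over all genes, and 9 of 10 were positive. In the fit with the mouse-number block 3 of the 5 were called, and without fresh replicate 2 none. In odd-numbered mice none of the 10 was called, where 0.49% of all genes were, and the median was -0.17 against -0.03 over all genes. The difference between the parities was called for 2 of the 10, where 12% of all genes were called, 6.39% downward, with a median of -0.91 against -0.18. For pH 7.4 against fresh cells none of the 10 was called in odd-numbered mice, in even-numbered mice or for the difference, where edgeR called 0.107%, 0.116% and 0.0891% of all genes. Of the 10, 10 and 9 fold changes were positive in odd-numbered and even-numbered mice, with medians of 0.28 and 0.20. These signs and medians are not set against those of all genes, so they show no rise particular to the 10. Ppard, close to the floor, is among the 10, at 0.71 ± 1.46 and -1.32 ± 1.43 (SE). DESeq2 called Acadvl in odd-numbered mice (log2 fold change 0.78, adjusted p = 0.0335) besides Cpt2 in even-numbered mice.

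Hadha and Hadhb encode the alpha and beta subunits of the mitochondrial trifunctional protein, which carries out the later steps of each cycle on long chains. Neither was called in any comparison by edgeR. Hadha had 49.9, 54.04, 40.6, 45.2 and 58.5 CPM at pH 6.9, 93.6, 67.6, 63.1, 56.1, 42.4 and 43.0 CPM at pH 7.4, and 63.6, 71.7, 49.1 and 37.37 CPM in fresh cells. Hadhb had 172, 291, 243, 236 and 325 CPM at pH 6.9, 284, 315, 288, 340, 298 and 359 CPM at pH 7.4, and 242, 262, 288 and 188 CPM in fresh cells. The 3 groups overlapped for both genes. The parity difference of Hadhb for pH 6.9 against fresh cells came nearest to a call, at -0.88 ± 0.29 (edgeR adjusted p = 0.0532). The subunits form 1 complex, and Hadhb was counted 3.03 to 8.35 times as often as Hadha in the 15 libraries, with medians of 5.39 at pH 6.9, 5.36 at pH 7.4 and 4.43 in fresh cells. Per length of the longest protein-coding transcript (4017 bases for Hadha and 2048 for Hadhb) the ratio was 5.95 to 16.4, a value that depends on the transcripts chosen. Over the 15 libraries Pearson's r of log2 CPM between Hadhb and Hadha was 0.27, and that of Hadha with the others of the 10 except Ppard lay between -0.21 (Acadm) and 0.29 (Cpt1a).

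**Figure D3:**
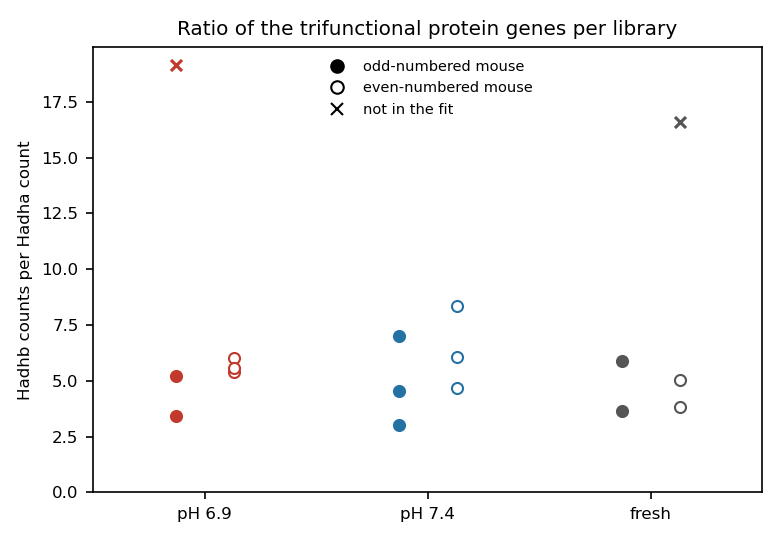
Hadhb counts per Hadha count (vertical axis, linear, from 0) in each library by group; filled points are odd-numbered and open points even-numbered mice, and crosses are libraries left out of the fit. The ratio was 3.03 to 8.35 in the 15 libraries of the fit, against 19.15 in pH 6.9 replicate 3 and 16.6 in fresh replicate 4; fresh replicate 1 had no counts of either gene.

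Ppard could be described only by its few counts. It had 2.47, 0, 0.606, 0.282 and 0.585 CPM at pH 6.9, 2.88, 0.262, 3.41, 1.37, 0.792 and 1.14 CPM at pH 7.4, and 4.54, 2.37, 0.536 and 0.319 CPM in fresh cells. A count of 0 allows up to 3 counts, which is 1.74 CPM in pH 6.9 replicate 2, where Ppard was at 0. These floors cover counting error only, since the libraries have no molecular identifiers. A change of Ppard was not detectable at this depth.

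The closest pair among the 10 genes was Acadvl and Etfdh. Over the 15 libraries Pearson's r of log2 CPM was 0.84 between Acadvl and Etfdh, 0.79 between Slc25a20 and Acadl, 0.72 between Slc25a20 and Etfdh and 0.69 between Cpt1a and Acadvl. Among 8252 genes, those most like Acadvl were Csnk1e (r = 0.96), S1pr1 (0.95) and Npy (0.95), and those most like Etfdh were Pnpla8 (0.96), Klhl24 (0.94) and Rab14 (0.93). Closest to Cpt1a were Gnas (0.93), Ppp1r13b (0.89) and Eya2 (0.89). Closest to Cpt2 were Casp6, Tnfrsf13b and Atp6ap1 (0.88 to 0.86), and closest to Acadl were Ccdc28a, Ctps2 and Lancl1 (0.85 to 0.82). These correlations describe points that share groups, parities and sequencing indices.

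Among PPAR target genes and import genes the calls also differed in number and direction between the parities. In even-numbered mice, 5 of 8 tested PPAR target genes outside beta oxidation rose at pH 6.9 against fresh cells (2 without fresh replicate 6, 3 without fresh replicate 2, 0 with all 18 libraries), namely Plin2, Ucp2, Txnip, Pnpla2 and Pdk4. Of all genes tested there, 10.1% were called and 4.98% were called higher. Plin2 and Pnpla2 also count among the lipolysis genes, of which 2 of 9 rose (1 without fresh replicate 6). Plin2, which coats lipid droplets, averaged 147 CPM at pH 6.9, against 40.65 CPM in fresh cells (log2 fold change 1.90 ± 0.26, edgeR adjusted p = 0.000312). Ucp2, a mitochondrial carrier of the uncoupling protein family, averaged 1281 CPM, against 523 CPM (1.34 ± 0.21, edgeR adjusted p = 0.000965). Txnip, an inhibitor of thioredoxin and of glucose uptake, averaged 172 CPM, against 56.8 CPM (1.65 ± 0.32, edgeR adjusted p = 0.0037, but 0.0623 without fresh replicate 6).

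For pH 6.9 against pH 7.4, Plin2 and Ucp2 were called in opposite directions in the parities. In odd-numbered mice Plin2 averaged 46.6 CPM at pH 6.9, against 132 CPM at pH 7.4, and fell by 1.496 on the log2 scale (SE 0.26, edgeR adjusted p = 0.00176). In even-numbered mice it averaged 147 CPM, against 85.7 CPM (0.81 ± 0.21, edgeR adjusted p = 0.0305), not called without any 1 of the 6 pH 7.4 and pH 6.9 libraries of even-numbered mice (0.0682 to 0.125). Ucp2 fell by 0.94 in odd-numbered mice (SE 0.21, edgeR adjusted p = 0.00908). Leaving out pH 6.9 replicate 1 ended that call (0.119). In even-numbered mice Ucp2 rose by 1.31 (SE 0.18, edgeR adjusted p = 0.000654). Of the 8 tested PPAR targets, Plin2 and Ucp2 fell and Lpl rose in odd-numbered mice (3 calls, but 1 without pH 6.9 replicate 1 and 5 without pH 7.4 replicate 5), where 10.6% of all genes were called. Ucp2, Txnip, Pdk4 and Plin2 rose in even-numbered mice (4 calls, but 2 without pH 7.4 replicates 2, 4 or 6 or pH 6.9 replicates 4 or 6), where 6.24% of all genes were called and 2.68% were called higher. For pH 7.4 against fresh cells 1 of the 8, Ucp2 in odd-numbered mice, was called (1.15 ± 0.21, edgeR adjusted p = 0.0342), and not without fresh replicates 3 or 5, pH 7.4 replicates 2 or 5 or pH 6.9 replicates 2 or 4 (0.0515 to 0.257).

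The list of mitochondrial import and porin genes also holds Cs, the gene of citrate synthase. Of its 11 tested genes, 7 were called lower at pH 6.9 than at pH 7.4 in even-numbered mice, Cs among these (edgeR adjusted p = 0.0494). Of all genes tested there, 6.24% were called in either direction and 2.68% were called higher. The count was 4 with the mouse-number block and 1 to 4 without any 1 even-numbered mouse library of the 2 cultures. Timm23, the channel of the inner-membrane translocase, averaged 289 CPM at pH 6.9, against 617 CPM at pH 7.4, and fell by 1.07 on the log2 scale (SE 0.20, edgeR adjusted p = 0.00361). Tomm20, a receptor of the outer-membrane translocase, averaged 260 CPM, against 497 CPM (log2 fold change -0.91 ± 0.20, edgeR adjusted p = 0.0107, 0.0736 without pH 7.4 replicate 6 and 0.0675 without pH 6.9 replicate 6). In odd-numbered mice Tomm22, Timm23, Tomm20 and Vdac2, 4 of the 11, rose and none fell, against 10.6% of all genes called. Timm23 averaged 659 CPM at pH 6.9, against 359 CPM at pH 7.4 (0.87 ± 0.21, edgeR adjusted p = 0.0152), and Tomm20 509 CPM, against 293 CPM (0.79 ± 0.22, edgeR adjusted p = 0.0253). With the mouse-number block both calls ended (0.0531 for Timm23 and 0.0693 for Tomm20). They also ended when pH 7.4 replicate 1, pH 6.9 replicate 1 or pH 6.9 replicate 5 was left out (0.0530 to 0.0953 for Timm23 and 0.0757 to 0.141 for Tomm20), and for Tomm20 when pH 7.4 replicate 3 was (0.0625). That count of 4 became 1 with the block, and also 1 if pH 7.4 replicate 1 or pH 6.9 replicate 1 was dropped, 2 if pH 7.4 replicate 3 was, and 0 if pH 6.9 replicate 5 was. The difference between the parities was called for 7 of the 11, against 17.2% of all genes, and for 6 to 8 in the fits that left out 1 library.

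**Figure D4:**
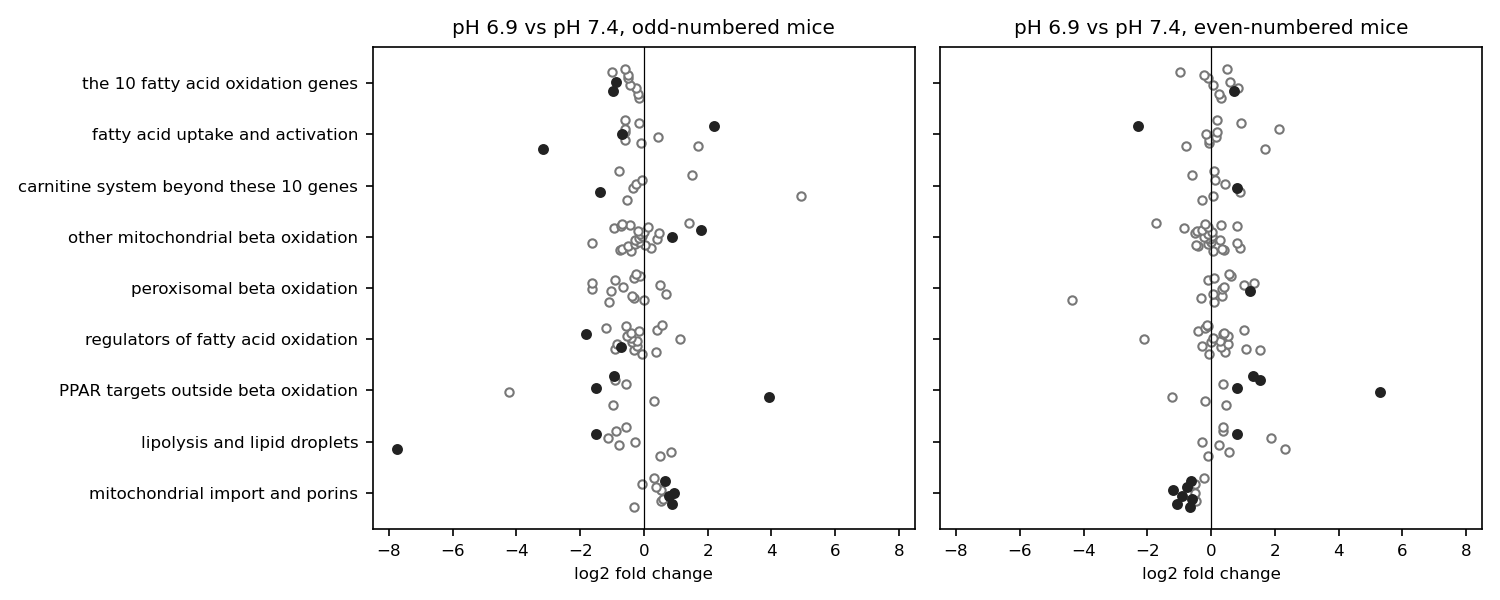
Log2 fold change of pH 6.9 against pH 7.4 (horizontal axis) for every tested gene of 9 gene lists (vertical axis), in odd-numbered mice (left) and even-numbered mice (right); filled points passed edgeR's test and the height within a list has no meaning. Of the 11 genes of the import and porin list, which includes Cs, 4 rose in odd-numbered mice and 7 fell in even-numbered mice. Of the 8 PPAR targets, 2 fell and 1 rose in odd-numbered mice and 4 rose in even-numbered mice. Fold changes beyond 4 belong to genes with near-zero counts in a set.

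Of 8 tested genes of the carnitine system beyond the shuttle, Crot, the peroxisomal carnitine octanoyltransferase, and Crat, the carnitine acetyltransferase, rose at pH 6.9 against fresh cells in even-numbered mice, where 4.98% of all genes were called higher. Crot averaged 169 CPM, against 77.4 CPM (log2 fold change 1.17 ± 0.22, edgeR adjusted p = 0.00261), and Crat 42.8 CPM, against 14.95 CPM (1.56 ± 0.37, edgeR adjusted p = 0.0119, but 0.155 without fresh replicate 2). Cpt1b and Cpt1c, the muscle and brain forms of the outer-membrane transferase, did not exceed 4.93 CPM in any library of the fit. Of 25 other genes of mitochondrial beta oxidation, Acad10 and Mlycd rose and Hsd17b10 and Etfb fell in that comparison. Acad10 was close to the floor there, at 1.95 to 5.15 CPM at pH 6.9 and 0 CPM in fresh cells. The calls were 4 of 25, against 10.1% of all genes. The count was 1 without fresh replicate 2, 1 with all 18 libraries, and 2 with the block or without fresh replicate 6, pH 7.4 replicates 2 or 6 or pH 6.9 replicates 4 or 6. Hsd17b10, a short-chain hydroxyacyl-CoA dehydrogenase of the matrix, fell by 1.32 (SE 0.23, edgeR adjusted p = 0.00198) in even-numbered mice. In odd-numbered mice Hsd17b10 rose by 1.75 (SE 0.27, edgeR adjusted p = 0.00339), a call that ended without fresh replicate 3 (0.0833).

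For pH 6.9 against pH 7.4, Hsd17b10 averaged 679 CPM, against 193 CPM, in odd-numbered mice (log2 fold change 1.81 ± 0.23, edgeR adjusted p = 0.000365). It averaged 187 CPM, against 233 CPM, in even-numbered mice, where it was not called. Of 11 tested genes of fatty acid uptake and activation, 1 rose and 2 fell in odd-numbered mice, where 10.6% of all genes were called. Fabp5, a cytosolic fatty acid binding protein, averaged 96.4 CPM at pH 6.9, against 21.1 CPM at pH 7.4, in odd-numbered mice (2.20 ± 0.43, edgeR adjusted p = 0.00529, but 0.0821 without pH 6.9 replicate 5). Those that fell were Acsf2, which averaged 1.73 CPM, against 13.3 CPM (-3.15 ± 0.81, edgeR adjusted p = 0.0186), and Acsl5, a long-chain acyl-CoA synthetase, which averaged 282 CPM, against 453 CPM (-0.70 ± 0.18, edgeR adjusted p = 0.0222). That count of 3 was 0 without pH 6.9 replicate 5, 1 without pH 7.4 replicate 1, 2 without pH 7.4 replicate 3 or pH 6.9 replicate 1, and 0 with all 18 libraries. In even-numbered mice Fabp5 averaged 20.7 CPM at pH 6.9, against 98.3 CPM at pH 7.4 (-2.29 ± 0.41, edgeR adjusted p = 0.00361), and against 132 CPM in fresh cells (-2.70 ± 0.44, edgeR adjusted p = 0.00139), the 1 of the 11 called in each of these 2 comparisons. Fabp5 thus moved opposite to Acadvl and Plin2 in both parities. Prkab1, a subunit of AMP-activated protein kinase, averaged 12.7 CPM, against 45.6 CPM, in odd-numbered mice (-1.82 ± 0.37, edgeR adjusted p = 0.00569, 0.0505 without pH 6.9 replicate 1) and with Ncor1 made up the 2 of 19 tested regulators called there (0 without pH 6.9 replicate 1, 1 without pH 7.4 replicates 3 or 5 or pH 6.9 replicate 5, and 0 with all 18 libraries). Of the called fold changes given with values for the other lists, none held with all 18 libraries except that of Hsd17b10 against pH 7.4 in odd-numbered mice and those of Hsd17b10 and Fabp5 against fresh cells in even-numbered mice.

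Of the overlapping genes on the opposite strand, Dvl2 had 5.94 to 23.0 CPM over the 6 sets, against 95.8 to 229 CPM of Acadvl, and Garem2 had 0 counts in each set. The 4930579G24Rik gene averaged 42.6 CPM at pH 6.9 and 60.8 CPM at pH 7.4 in odd-numbered mice, and 87.9 CPM and 80.3 CPM in even-numbered mice. Its level was of the order of that of Etfdh and its mean was lowest in the same set, so the values of Etfdh carry this uncertainty.

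Of the 3 libraries left out of the fits, 2 showed these genes in a different proportion. In pH 6.9 replicate 3, Acadvl had 2 counts, which is 1.10% of its group's median level, Cpt2 had 3 counts (4.09%) and Cpt1a 17 (10.4%). In the same library Hadhb stood at 227% of the group's median, Acadl at 186.5%, Etfdh at 162% and Acadm at 141%. Fresh replicate 4 showed a like split, with 1 count of Acadvl (0.529%), 0 of Cpt2 and 6 of Cpt1a (3.99%), but Acadl at 274%, Etfdh at 221%, Hadhb at 206% and Acadm at 175%. Slc25a20 and Hadha lay between, at 95.1% and 57.9% in pH 6.9 replicate 3 and at 44.8% and 55.6% in fresh replicate 4. The genes at over 100% have the transcripts with the lowest GC of the 10, from 45.15% in Acadl to 48.0% in Acadm. Cpt1a (51.33% GC), Cpt2 (52.6%) and Acadvl (53.7%) were at 10.4% or less in both libraries. Hadha (51.28% GC) is close to Cpt1a in GC but stood higher, and Slc25a20 has 50.14% GC. Ppard, with the highest GC (59.8%), had 0 counts in pH 6.9 replicate 3 and 2 counts (76.8%) in fresh replicate 4. Over all genes of at least 10 CPM, the median was 131.5% and 127% of the group's median for transcripts under 44% GC, and 10.97% and 11.2% for those at or above 56% GC. Fresh replicate 1 held 6 counts of the 10 genes together, and 3 counts are 238 CPM there.

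**Figure D5:**
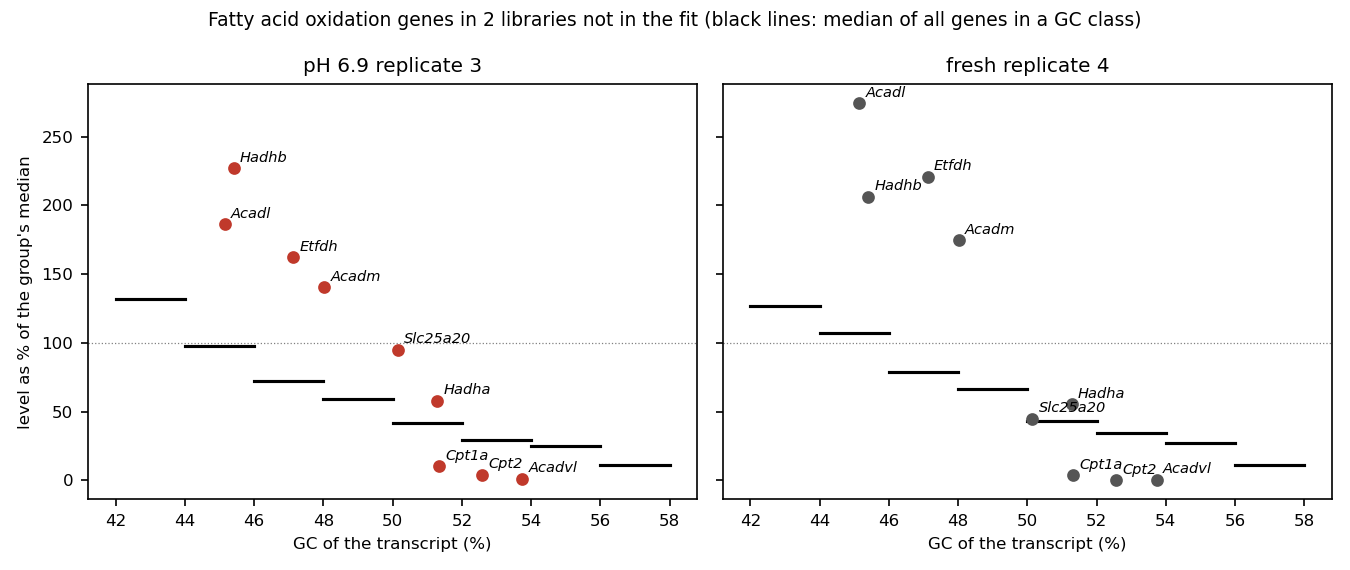
Level of 9 of the genes in 2 libraries left out of the fit, as percent of the median of their group's other libraries (vertical axis, linear), against the GC content of the transcript in percent (horizontal axis); black lines are medians of all genes in a GC class, the outer classes being open-ended. Acadl, Hadhb, Etfdh and Acadm lay above 100% in both libraries, and Cpt1a, Cpt2 and Acadvl at 10.4% or less.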

How the data were processed

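Per the labels' protocols, cDNA was made from 100 sorted cells with the SMART-Seq v4 kit and made into libraries with Nextera XT, without strand information, and read as paired ends of 75 bp. The submitters' processing notes name kallisto, without a version, and the build mm10. The deposited table holds whole-number estimated counts per gene symbol, made by the authors with kallisto per the submitters' processing notes, and how they summed transcripts to genes was not stated in the labels. All columns were matched to samples (0 left over).

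Counts were filtered with filterByExpr, scaled by TMM and tested with edgeR 4.0.16 (R 4.3.3) by robust quasi-likelihood fits, first with 1 coefficient per group (10659 genes) and then with 1 per set of group and mouse parity (11226 genes). P-values were Benjamini-Hochberg adjusted over all genes, with a threshold of 0.05. The tests were also run on simulated counts that held no difference between the parities, so that check does not cover such a difference. The 10 genes, the other lists, the split by parity and the rule that kept libraries with at least 1e+05 counts and 10000 genes were chosen with earlier results of these data known. All 10 genes are named. Of each other list, up to 3 genes per direction and comparison are named, those called with the smallest p, and for genes called in a comparison the 3 most alike by Pearson's r of log2 (CPM + 1), among genes with a mean of at least 10 CPM. Ppara, Pparg, Cpt1b, Cpt1c, Cs and the overlapping genes were named for their role or position. The SE of an edgeR fold change was derived from its test, as the absolute log2 fold change divided by the square root of the F statistic. P-values of the fit by group and parity measure the spread between mice within a set of 2 or 3 libraries. Those over all mice measure the spread within a group of 4 to 6 libraries, which includes the difference between the parities.

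The design text names 6 individual mice, so replicate numbers were taken to pair libraries across groups, and blocking on mouse number was tried as an alternative. Of 12 pairs of libraries with the same number, 2 had deviations from the group means that correlated above 0.1 (r of -0.28 to 0.31), and 4 had deviations from the set means that did (-0.13 to 0.24). For deviations from the group means, the median r was -0.15, against 0.04 in 62 pairs with different numbers. For those from the set means it was 0.06, against -0.01. Other alternatives were all 18 libraries, 17 libraries (without fresh replicate 1), DESeq2 size factors, no filter, DESeq2 1.42.0 and leaving out each library in turn. Gene positions, transcript lengths and transcript GC are from GENCODE M21 on GRCm38, and promoter windows from RefSeq. Length and GC are those of the longest protein-coding transcript of each gene in the basic set of GENCODE. Some items are not reported here.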

Additional observations from a re-analysis of the deposited data

Results flagged for a closer look

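Of 30 sets of values by gene and group, 2 held a library far from the others, and chance flags about 1 in 20. Acadl stood at 407 CPM in pH 7.4 replicate 5, against 231 to 293 CPM in the other libraries of that culture. Ppard stood at 2.47 CPM in pH 6.9 replicate 1, against 0 to 0.606 CPM in the other libraries at pH 6.9, all of them from few counts.

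A difference between odd-numbered and even-numbered mice passed edgeR's test for 2 genes in 2 comparisons that share the pH 6.9 libraries. The odd-minus-even difference of log2 fold changes for pH 6.9 against pH 7.4 was -1.68 for Acadvl and -1.46 for Etfdh. For pH 6.9 against fresh cells it was -1.08 for Acadvl and -1.40 for Etfdh. The parities also differ in the first index and in the marker levels given above, and what sets them apart was not tested.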

How the results depend on the processing

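With all 18 libraries the genes called were 1, 50 and 644 for pH 6.9 against fresh cells (odd-numbered mice, even-numbered mice and their difference, in this order throughout), 1, 0 and 0 for pH 7.4 against fresh cells and 58, 0 and 159 for pH 6.9 against pH 7.4. With 17 libraries they were 1, 198 and 520, then 1, 0 and 0, then 73, 0 and 294. With either, 0 of the 10 genes was called. Acadl in even-numbered mice at pH 6.9 against fresh cells then stood at -0.059 (18 libraries) and -0.10 (17), and the parity difference of Etfdh in that comparison at 0.093 (18), each turned in sign. Without a filter 391, 317, 369 and 264 genes were called where 55 (pH 6.9 against fresh cells, odd), 12, 13 and 10 (pH 7.4 against fresh cells) were, and of the 10 genes 1 for the difference of pH 6.9 against fresh cells, 1 for pH 7.4 against fresh cells and 2 for pH 6.9 against pH 7.4, both in even-numbered mice. DESeq2 called 1 and 9 genes over all mice for pH 6.9 against fresh cells and against pH 7.4. It called 288 genes (pH 6.9 against fresh cells, odd), 168, 140 and 109 (pH 7.4 against fresh cells) and 1106 (pH 6.9 against pH 7.4, even). Of the 10 it called 1 and 1 for pH 7.4 against fresh cells and 3 for pH 6.9 against pH 7.4 in even-numbered mice. With the replicate block (mouse number) 27 genes were called for pH 6.9 against fresh cells (odd), 21 and 5 for pH 7.4 against fresh cells and 785 for pH 6.9 against pH 7.4 (odd), and of the 10 genes 3 (even) and 1 (difference) for pH 6.9 against fresh cells. Leaving out each library in turn gave 15 to 144, 412 to 1305 and 469 to 1542 genes for pH 6.9 against fresh cells, with 0, 0 to 5 and 0 to 3 of the 10, 1 to 30, 0 to 22 and 0 to 32 for pH 7.4 against fresh cells, with 0 of the 10, and 473 to 1336, 163 to 898 and 1368 to 2016 for pH 6.9 against pH 7.4, with 0 to 2, 0 to 2 and 2 to 3. Of the 10 genes, 0 was called without fresh replicate 2 (pH 6.9 against fresh cells, even), without fresh replicate 3 (its difference), and, for pH 6.9 against pH 7.4, without pH 6.9 replicate 1 or 5 (odd) or pH 7.4 replicates 2, 4 or 6 or pH 6.9 replicates 2 or 4 (even). Where this left 1 library in a set, its spread was taken from the other sets. Of 49 fold changes given for named genes, 48 kept direction and side of the threshold with DESeq2 size factors, 45 with DESeq2 and 43 with the block. The number was 44 without a filter, but 13 with all 18 libraries and 13 with 17. Of the 49, 2 turned in sign with all 18 libraries and 1 with 17. Apart from these, the causes were not tested.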
